A study of Mus musculus with 10 samples.

Results

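The regions described here are the probed CpG-rich stretches of 5 imprinted domains of growth genes in mouse brain, those of H19 and Igf2, of Kcnq1ot1, of Dlk1 and Meg3, of Rasgrf1, and of Igf2r and Airn. Members were chosen by position on the mouse build mm9, as the non-control probes that start inside 1 of 5 fixed windows. The windows held 83 of the 88737 non-control probes of the array. Probes whose starts lay at most 500 bp apart were joined into regions of at least 3 probes, which gave 9 member regions of 13835 regions in all, and every member probe fell into such a region. Left hemibrains of male C57BL/6j mice were profiled by immunoprecipitation of methylated DNA followed by hybridisation to a 2-colour CpG island array (MeDIP-chip), with precipitated DNA in Cy5 and input DNA in Cy3. The mice were put on 1 of 3 diets at 3 weeks of age and kept on it for 24 weeks. The n-3 enriched diet (ERD) held n-3 and n-6 polyunsaturated fatty acids at 7:1 and had 4 arrays, the balanced diet (BLD) held them at 1:1 and had 3 arrays, and the standard laboratory diet (STD), against which the others were set, held them at 1:6 and had 3 arrays. The diets were made to match in calories, and the question was whether methylation in the brain differs between them. The titles of all 10 samples, on all 3 diets, end in the word CONTROL, and nothing in the labels says that each array is a separate animal, so the spread between arrays may be partly technical. Whole hemibrain was used, so a different mixture of cell types and a different methylation within a cell type cannot be told apart, and the tissue label could not be checked against expressed markers.

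Imprinted genes are expressed mainly or only from the copy inherited from a given parent. The choice is held by control regions that carry DNA methylation on a single parental copy, set in the germ line and kept in the cells of the body. At the H19 and Igf2 domain, at Dlk1 and Meg3 and at Rasgrf1 the methylated copy comes from the father, whereas the promoters of the long noncoding RNAs Kcnq1ot1 and Airn are methylated on the copy from the mother. Kcnq1ot1 and Airn act in cis to silence neighbouring genes, Airn among them the overlapping Igf2r. Igf2 encodes a fetal growth factor, Igf2r the receptor that clears it, Dlk1 a membrane protein of the Notch ligand type, Rasgrf1 an exchange factor for Ras that is abundant in brain, and H19 and Meg3 are noncoding RNAs of the maternal copy.

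Promoters from RefSeq are shown for Kcnq1ot1, Airn, Meg3, Rasgrf1 and Igf2r, while those of Igf2 and Dlk1 are not shown. They run from 250 bases before to 50 after the start of the gene (GRCm38.p6). All are on the gene's own strand, and every CpG, the dinucleotide that carries the mark, is in capitals. RefSeq promoters were found for 7 of the 8 genes, all but H19, 11 promoters in all. The array's probes are on mm9, so they were not placed on these sequences, and a CpG count describes the window printed and not a measured site. The Kcnq1ot1 promoter lies at chr7:143296498-143296797 on the minus strand, the Airn promoter at chr17:12741061-12741360 on the plus strand, the more CpG-rich of both Meg3 promoters at chr12:109540746-109541045 on the plus strand, the Rasgrf1 promoter at chr9:89909525-89909824 on the plus strand and the Igf2r promoter at chr17:12769657-12769956 on the minus strand.
Kcnq1ot1: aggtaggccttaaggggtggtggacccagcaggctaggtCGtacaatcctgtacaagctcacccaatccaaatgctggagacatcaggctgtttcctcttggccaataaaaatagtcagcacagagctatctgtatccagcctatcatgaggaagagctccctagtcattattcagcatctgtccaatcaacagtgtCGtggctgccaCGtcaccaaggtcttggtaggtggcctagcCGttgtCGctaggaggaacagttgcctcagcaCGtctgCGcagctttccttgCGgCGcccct
Airn: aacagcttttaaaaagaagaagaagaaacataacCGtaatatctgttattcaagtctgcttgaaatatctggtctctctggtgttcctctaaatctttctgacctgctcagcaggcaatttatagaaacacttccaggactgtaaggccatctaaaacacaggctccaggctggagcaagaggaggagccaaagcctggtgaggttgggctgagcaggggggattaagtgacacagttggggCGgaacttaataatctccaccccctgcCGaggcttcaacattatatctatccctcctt
Meg3: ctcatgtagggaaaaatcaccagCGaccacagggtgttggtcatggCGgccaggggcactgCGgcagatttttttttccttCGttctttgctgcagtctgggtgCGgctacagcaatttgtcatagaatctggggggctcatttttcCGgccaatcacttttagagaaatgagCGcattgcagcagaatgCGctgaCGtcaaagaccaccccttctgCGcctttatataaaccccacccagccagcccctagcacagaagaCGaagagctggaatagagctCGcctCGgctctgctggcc
Rasgrf1: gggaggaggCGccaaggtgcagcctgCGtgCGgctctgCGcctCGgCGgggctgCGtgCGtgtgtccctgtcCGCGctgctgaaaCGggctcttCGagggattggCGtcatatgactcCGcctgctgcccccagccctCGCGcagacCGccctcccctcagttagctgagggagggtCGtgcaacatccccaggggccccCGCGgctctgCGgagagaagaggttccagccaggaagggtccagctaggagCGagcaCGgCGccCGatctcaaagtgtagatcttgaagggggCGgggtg
Igf2r: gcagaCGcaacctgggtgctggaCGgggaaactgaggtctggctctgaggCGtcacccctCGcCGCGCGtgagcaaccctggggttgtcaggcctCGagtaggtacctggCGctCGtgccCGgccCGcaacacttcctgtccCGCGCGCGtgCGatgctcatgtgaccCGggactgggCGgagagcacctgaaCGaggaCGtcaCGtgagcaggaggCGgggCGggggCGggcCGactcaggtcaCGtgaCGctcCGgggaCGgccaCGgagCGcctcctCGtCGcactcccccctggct
Among these, Igf2r held 34 CpG, Rasgrf1 26, Meg3 13, Kcnq1ot1 9 and Airn 3, beside a median of 7 over the 32851 promoters of the table. The other Meg3 promoter held 1 CpG. Of all promoters, 7.73% held at least as many CpG as that of Igf2r, 16.9% as that of Rasgrf1, 37.9% as that of Meg3, 45.8% as that of Kcnq1ot1 and 76.7% as that of Airn.

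Every value below is the log2 of the processed Cy5 signal divided by the Cy3 signal, set to 0 at the median probe of its array, and a region's value is the mean of its probes. The ratio tells where a region stands among the probes of its array and is no percentage of methylated DNA. Probe and dye effects shared by all arrays remain in it, since no array had its dyes swapped, so levels of different regions are descriptions and only differences between diets were tested. The 88737 probes were well above background in both channels for 76.4% to 94.7% per array. This was 84.1% to 94.7% on ERD arrays, 88.0% to 90.5% on BLD arrays and 76.4% to 89.2% on STD arrays, lowest on STD replicate 3. Over all regions the correlation of that array with the others was 0.26 to 0.49, beside 0.34 to 0.80 among the others. The interquartile range of the log2 ratio was 0.61 to 0.79 on ERD arrays, 0.38 to 0.74 on BLD arrays and 0.38 to 0.53 on STD arrays. The arrays came from 5 slides. BLD replicate 3 and STD replicate 1 shared 1, and every other slide held a single diet. ERD shared none with either other diet, so for ERD slide and diet cannot be told apart. BLD and STD can be set side by side on a common slide only in that 1 pair.

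The member regions did not cover the windows evenly. In the H19 and Igf2 window the first 89.9 kb held no member probe, so the H19 side was not analysed here, and both regions lay in the last part, where RefSeq's gene order puts Igf2. The first 41.4 kb of the Rasgrf1 window and the last 48.3 kb of the Dlk1 and Meg3 window likewise held none. Whether the Rasgrf1 probes fall in the control region of that domain, or any probe in a Meg3 promoter, was not tested. The region names below follow the windows and the order of the genes in RefSeq and rest on no mm9 annotation. Their coordinates and those of single probes are on mm9, and exon, intron and promoter positions are not given.

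Of the 9 regions, 9 had a mean over the 10 arrays above the array median (7 of 9 with another background correction, normexp), and 2 of 9 lay above it on each of the 10 arrays, as did 8.27% of all 13835 regions. None of the 9 stood under that median throughout, where 16% of all regions did. The highest levels were those of the regions at Dlk1-Meg3, Kcnq1ot1 and Airn, at percentiles 95.1, 93.7 and 92.2 of all regions by mean level. The second Dlk1 region followed at 87.1, Rasgrf1 at 81.0, the short Igf2 region at 74.9, the first Dlk1 region at 74.8, Igf2r at 69.6 and the long Igf2 region at 62.6.

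**Figure D1:**
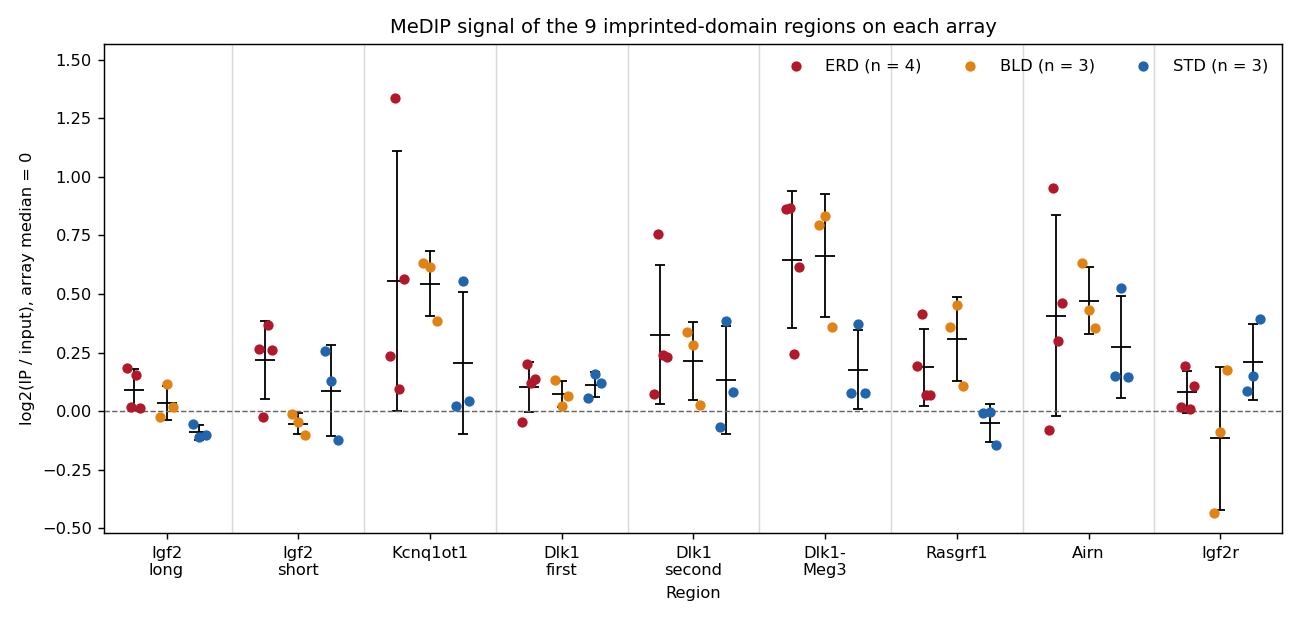
Log2 ratio of precipitated over input DNA (vertical axis, array median at 0) of the 9 regions on each array. Points are arrays, in the order ERD, BLD and STD within each region, and bars give the mean and SD of a diet. Dlk1-Meg3 and Kcnq1ot1 are the 2 regions with every array above 0.

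The region between Dlk1 and Meg3 held 4 probes at chr12:110766379-110766726, 68.1 kb beyond the nearest Dlk1 region. The differentially methylated stretch that controls this domain is known to lie between both genes, but whether these probes fall in it was not tested. The ERD arrays stood at 0.86, 0.87, 0.24 and 0.61, the BLD arrays at 0.80, 0.83 and 0.36 and the STD arrays at 0.08, 0.37 and 0.08. ERD averaged 0.65 ± 0.29 (SD, n = 4), BLD 0.66 ± 0.26 (n = 3) and STD 0.18 ± 0.17 (n = 3). A single ERD array and a single BLD array fell below the highest STD array, so neither diet was fully separate from STD. ERD minus STD was 0.47 ± 0.17 (SE) with an interval of 0.11 to 0.84, and it missed the threshold (limma, adjusted p = 0.229). BLD minus STD was 0.49 ± 0.18 (SE), interval 0.10 to 0.88, and missed it too (limma, adjusted p = 0.440). The pair of arrays on a shared slide gave 0.28 for BLD minus STD. The full differences of ERD and BLD from STD turned negative, to -0.26 and -0.33, under normexp, which replaces the scanner's background subtraction with a modelled one. Under it the ERD arrays stood at -0.02, 0.01, -0.01 and 0.41 and the BLD arrays at 0.01, 0.01 and 0.04. The STD arrays then stood at -0.02, 0.45 and 0.64. Most ERD and BLD values had thus moved close to 0. Without normexp, ERD minus BLD was -0.02 with an interval of -0.38 to 0.35.

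Much of the BLD value came from the fourth of the 4 probes, which was well above background on 0 of 10 arrays. That probe read 2.35, 1.47, -0.35 and -0.12 on the ERD arrays, 1.77, 2.05 and 0.36 on the BLD arrays and -0.21, 0.02 and -0.07 on the STD arrays. Without it BLD minus STD was 0.16 (limma, adjusted p = 0.666), while ERD minus STD was 0.32 (limma, adjusted p = 0.258). On the remaining 3 probes the ERD arrays stood at 0.37, 0.67, 0.44 and 0.86, the BLD arrays at 0.47, 0.43 and 0.36 and the STD arrays at 0.18, 0.49 and 0.13. Probes 2 and 3 were well above background on at least 9 of 10 arrays. The second was above the array median on all 10 arrays, at 0.71, 1.02, 0.35 and 1.08 in ERD, 0.55, 0.31 and 0.26 in BLD and 0.29, 0.58 and 0.32 in STD. The third read 0.72, 0.95, 0.82 and 1.32 in ERD, 0.16, 0.82 and 0.36 in BLD and 0.41, 0.85 and -0.11 in STD, so the ERD and STD arrays overlapped at both probes.

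Kcnq1ot1 was covered by 8 probes at chr7:150481208-150482535. The ERD arrays stood at 0.23, 1.34, 0.09 and 0.56, the BLD arrays at 0.63, 0.62 and 0.38 and the STD arrays at 0.02, 0.55 and 0.04. The region was above the array median throughout, and all 8 probes had a mean above it, from 0.33 to 0.55. ERD averaged 0.56 ± 0.56 (SD, n = 4), BLD 0.54 ± 0.14 (n = 3) and STD 0.21 ± 0.30 (n = 3), and the diets overlapped. Within a diet the arrays of this region spread widely, with a residual SD at percentile 96.6 of all regions and at 80.3 among the 690 regions nearest to it in level. ERD replicate 2 set the ERD mean. With it the difference of ERD and STD was 0.35 ± 0.25 (SE; limma, adjusted p = 0.504), and without it 0.09. BLD minus STD was 0.34 ± 0.27 (SE; limma, adjusted p = 0.610), and the pair of arrays on a shared slide gave 0.36. Normexp turned these differences to -0.01 and -0.12, and under it ERD replicate 2 stood at 0.04. Without normexp, ERD minus BLD was 0.01 with an interval of -0.53 to 0.56.

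A single probe in the middle of the Kcnq1ot1 region had the lowest p of all member probes in ERD against STD and in the trend. It starts 522 bp from the start of the region, at chr7:150481730-150481779. It read 0.87, 1.77, 0.43 and 1.16 on the ERD arrays, 0.29, 1.01 and 0.14 on the BLD arrays and -0.40, 0.13 and 0.04 on the STD arrays. Here every ERD array lay above every STD array, as at 7.61% of all 86593 probes. The difference of ERD and STD was 1.14 ± 0.31 (SE; limma, adjusted p = 0.164 over 86593 probes). The probe was well above background on 2 of 4 ERD arrays, 2 of 3 BLD arrays and 3 of 3 STD arrays. The neighbour before it, at chr7:150481613-150481657, was above the array median and well above background on all 10 arrays, at 0.33, 1.08, 0.46 and 1.10 in ERD, 0.64, 0.35 and 0.31 in BLD and 0.16, 0.90 and 0.16 in STD.

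**Figure D2:**
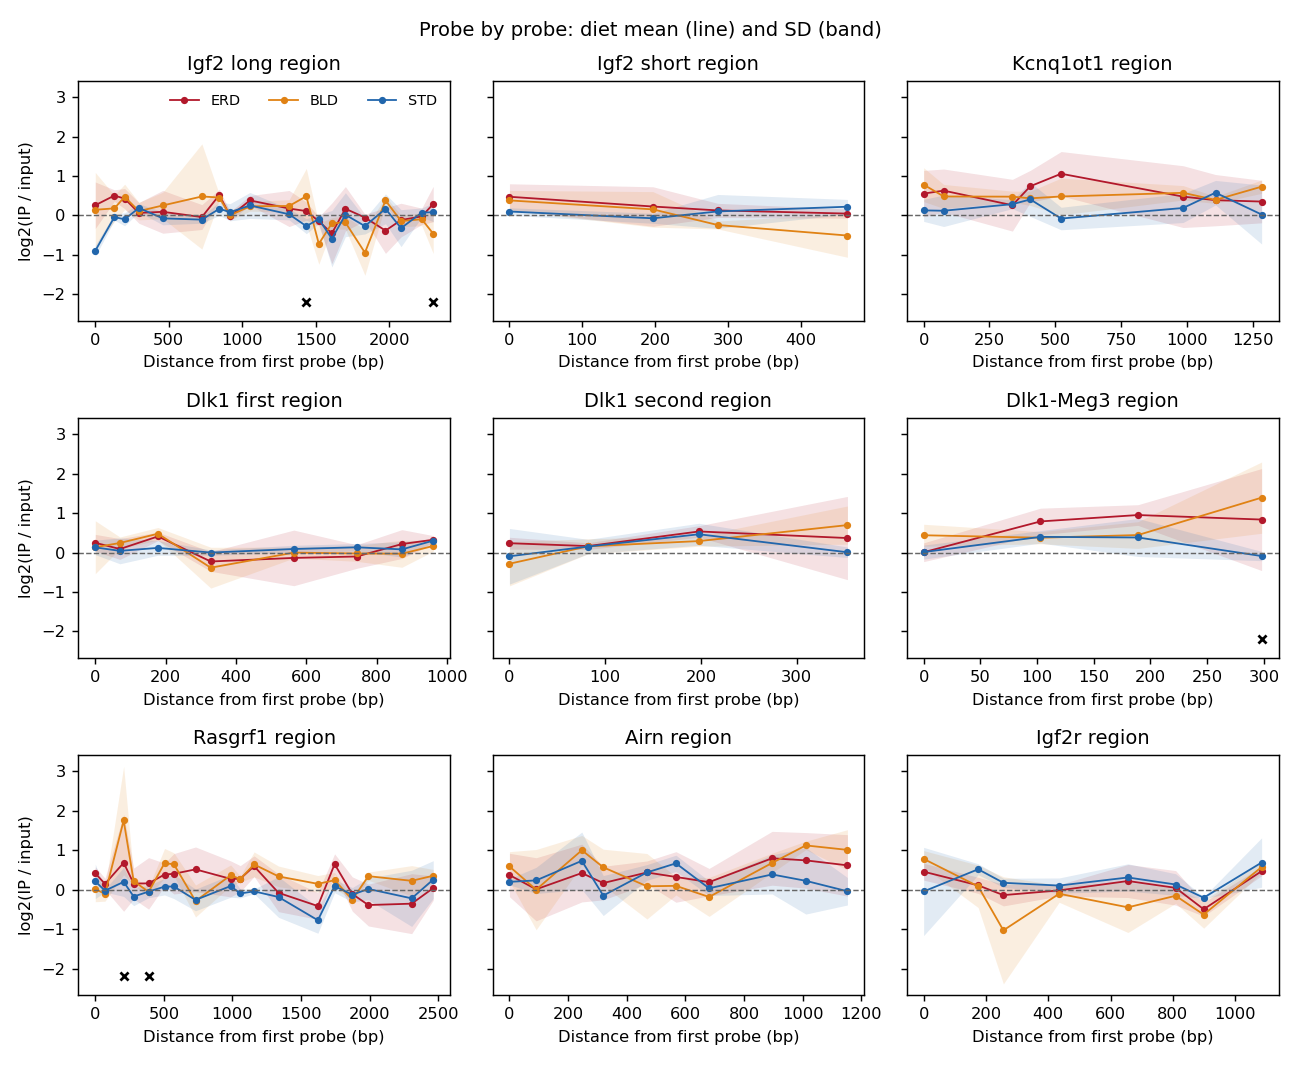
Log2 ratio of single probes (vertical axis) against distance in bp from the first probe of the region (horizontal axis), 1 panel per region. Lines join the diet means, bands give the SD of a diet, and crosses mark probes well above background on fewer than 5 of the 10 arrays. All 8 Kcnq1ot1 probes and all 10 Airn probes average above 0.

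Airn, the noncoding RNA that overlaps Igf2r, was covered by 10 probes at chr17:12934260-12935460. The ERD arrays stood at -0.08, 0.95, 0.30 and 0.46, the BLD arrays at 0.63, 0.43 and 0.35 and the STD arrays at 0.15, 0.53 and 0.15. This was above the array median on 9 of 10 arrays, with ERD replicate 1 the exception, and all 10 probes had a mean above it. ERD averaged 0.41 ± 0.43 (SD, n = 4), BLD 0.47 ± 0.14 (n = 3) and STD 0.27 ± 0.22 (n = 3), differences within the spread of the arrays. ERD minus STD was 0.13 ± 0.20 (SE; limma, adjusted p = 0.756), and it was -0.05 without ERD replicate 2 and -0.14 under normexp. BLD minus STD was 0.20 ± 0.21 (SE; limma, adjusted p = 0.710). The estimate turned to -0.21 on the 3 probes that were well above background on every array and to -0.23 under normexp. ERD minus BLD was -0.06 with an interval of -0.50 to 0.37. Of the Airn measurements 92.5% were well above background in ERD, 93.3% in BLD and 56.7% in STD. Over all probes the mean shares were 88.5%, 89.6% and 81.5%. STD was also lowest at Kcnq1ot1 (70.8%), the long Igf2 region (70.2%) and Rasgrf1 (68.5%), but highest at the short Igf2 region (100%). The part of these gaps in the values was not tested. The third probe, at chr17:12934507-12934553, was well above background on every ERD and BLD array and on 0 of 3 STD arrays, so no fold is given for it. The diets kept no common order at the 3 noncoding or intergenic regions beyond STD having the lowest mean at each, which did not hold under normexp.

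Igf2 was covered by a long region of 19 probes at chr7:149844923-149847273 and by a short one of 4 probes at chr7:149849765-149850273, 2.49 kb apart. On the long region the ERD arrays stood at 0.18, 0.02, 0.15 and 0.01, the BLD arrays at -0.02, 0.12 and 0.02 and the STD arrays at -0.05, -0.11 and -0.10. Every ERD array and every BLD array thus lay above every STD array, by little. With loess every BLD array but replicate 3 fell below STD replicate 1, and with the series value table BLD replicate 1 did. Under normexp the ERD arrays overlapped STD and every BLD array lay below every STD array. On the 7 probes well above background on every array both diets overlapped STD. Of all regions 7.24% had ERD wholly above STD and 11.1% had BLD wholly above STD. Mean levels were 0.09 ± 0.09 for ERD (SD, n = 4), 0.04 ± 0.07 for BLD (n = 3) and -0.09 ± 0.03 for STD (n = 3). ERD minus STD was 0.18 ± 0.09 (SE; limma, adjusted p = 0.337), with an interval of -0.01 to 0.37, and it was -0.06 under normexp. BLD minus STD was 0.13 ± 0.09 (SE; limma, adjusted p = 0.590), with an interval of -0.08 to 0.33. This was the steadiest member region within diets, with a residual SD at percentile 3.23 of all regions. A mean over more probes varies less, and among the 92 regions of nearly the same probe number it stood at percentile 19.4.

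The long Igf2 region was not uniform along its length. Of its 11 probes before 1500 bp, 10 had a mean above the array median, against 3 of the 8 probes from there on. Over the first stretch the mean was 0.22 in ERD, 0.28 in BLD and -0.07 in STD, and over the second it was -0.09 in ERD, -0.30 in BLD and -0.12 in STD. The split at 1500 bp was chosen after the values were seen. The first probe read 0.62, 0.89, -0.13 and -0.35 on the ERD arrays, 1.05, 0.23 and -0.84 on the BLD arrays and -0.74, -0.92 and -1.02 on the STD arrays. All ERD arrays lay above all STD arrays there, as at 7.61% of all probes, and ERD minus STD was 1.16 ± 0.40 (SE; limma, adjusted p = 0.226). The second probe read 0.59, 0.66, 0.34 and 0.42 in ERD, 0.56, 0.06 and -0.08 in BLD and -0.13, 0.02 and -0.01 in STD. It had the second lowest p of the member probes in the trend over the n-3 to n-6 ratio, with a slope of 0.10 ± 0.03 (SE; limma, adjusted p = 0.204).

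In the second stretch, the probe 1836 bp from the start, at chr7:149846759-149846803, had the lowest p of the member probes in ERD against BLD. The ERD arrays were tightly grouped at 0.03, -0.14, 0.01 and -0.11, while the BLD arrays stood at -1.45, -1.06 and -0.32 and the STD arrays at -0.13, -0.50 and -0.18. ERD minus BLD was 0.89 ± 0.24 (SE; limma, adjusted p = 0.377). Without BLD replicate 3 it was 1.20 and passed the threshold (limma, adjusted p = 0.0388), in a fit that called 435 of the 86593 probes and no other member. The lowest 2 values, BLD replicates 1 and 2, came from a slide that held no other array of the series. These were the only BLD arrays in that fit. The probe was well above background on 4 of 4 ERD arrays, 2 of 3 BLD arrays and 3 of 3 STD arrays.

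On the short Igf2 region the ERD arrays stood at 0.27, -0.02, 0.37 and 0.26, the BLD arrays at -0.01, -0.05 and -0.10 and the STD arrays at 0.26, 0.13 and -0.12. ERD averaged 0.22 ± 0.17 (SD, n = 4), BLD -0.05 ± 0.04 (n = 3) and STD 0.09 ± 0.19 (n = 3), so that here BLD had the lowest mean. ERD minus BLD was 0.27 ± 0.12 (SE; limma, adjusted p = 0.471), the lowest p of a member region in that comparison, with an interval of 0.02 to 0.53, and it was 0.012 under normexp. The difference of BLD and STD was -0.14 ± 0.13 (SE; limma, adjusted p = 0.653), from -0.25 without STD replicate 3 to -0.057 without STD replicate 1, and the pair of arrays on a shared slide gave -0.36. The last of its probes, at chr7:149850229-149850273, read -0.07, 0.21, 0.02 and 0.02 in ERD, -0.99, -0.63 and 0.09 in BLD and 0.43, 0.12 and 0.11 in STD. At that probe too BLD replicates 1 and 2 were low and BLD replicate 3 was not, and BLD minus STD was -0.73 ± 0.26 (SE; limma, adjusted p = 0.466).

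Dlk1 was covered by 8 probes at chr12:110691154-110692158 and by 4 at chr12:110697905-110698305. On the first region the ERD arrays stood at -0.05, 0.20, 0.12 and 0.14, the BLD arrays at 0.13, 0.02 and 0.06 and the STD arrays at 0.05, 0.16 and 0.12, with a residual SD at percentile 5.80 of all regions. Under normexp its arrays ranged from -0.55 on STD replicate 3 to 0.34 on ERD replicate 3. The 3 intervals of the differences were -0.21 to 0.19 for ERD minus STD, -0.25 to 0.17 for BLD minus STD and -0.17 to 0.23 for ERD minus BLD. The second region read 0.07, 0.76, 0.24 and 0.23 on the ERD arrays, 0.34, 0.28 and 0.03 on the BLD arrays and -0.07, 0.39 and 0.08 on the STD arrays. Mean levels were 0.33 ± 0.30 for ERD (SD, n = 4), 0.22 ± 0.17 for BLD (n = 3) and 0.13 ± 0.23 for STD (n = 3), within the spread of the arrays, and the interval of ERD minus STD was -0.16 to 0.55. ERD replicate 2 was the highest array at 5 of the 9 regions, those at Kcnq1ot1, Airn, Dlk1-Meg3 and both of Dlk1. The 90th percentile of all other regions was also highest on that array, at 0.65, beside 0.32 to 0.38 on the other ERD arrays, 0.24 to 0.50 on the BLD arrays and 0.16 to 0.30 on the STD arrays.

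Rasgrf1 was covered by 18 probes at chr9:89803449-89805957. The ERD arrays stood at 0.19, 0.42, 0.07 and 0.07, the BLD arrays at 0.36, 0.45 and 0.11 and the STD arrays at -0.01, -0.0029 and -0.14. As at the long Igf2 region, every ERD array and every BLD array lay above every STD array, but not under normexp, where STD replicate 3 was the highest array at 0.25. Mean levels were 0.19 ± 0.16 for ERD (SD, n = 4), 0.31 ± 0.18 for BLD (n = 3) and -0.05 ± 0.08 for STD (n = 3). BLD minus STD was 0.36 ± 0.12 (SE) with an interval of 0.09 to 0.63, the lowest p of a member region in that comparison, and missed the threshold (limma, adjusted p = 0.440). For ERD minus STD it was 0.24 ± 0.12 (SE; limma, adjusted p = 0.345). On the slide that BLD replicate 3 and STD replicate 1 shared, the difference was 0.12, a single pair with no test. Normexp turned both, to -0.10 for BLD minus STD and -0.05 for ERD minus STD.

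Within the Rasgrf1 region, 15 of 18 probes had a higher ERD than STD mean and 13 of 18 a higher BLD than STD mean, beside 53.1% and 52.3% of all probes. These are neighbouring probes on the same arrays, so the counts restate the difference of the region and are not separate observations. The probe 1158 bp from the start, at chr9:89804607-89804651, was well above background on all 10 arrays. It read 0.23, 0.76, 0.58 and 0.81 on the ERD arrays, 0.56, 0.99 and 0.37 on the BLD arrays and 0.01, -0.03 and -0.11 on the STD arrays, which were the 3 lowest values. Of all probes, 7.61% had ERD wholly above STD and 9.51% had BLD wholly above STD. ERD minus STD was 0.64 ± 0.21 (SE; limma, adjusted p = 0.201) and BLD minus STD was 0.68 ± 0.22 (SE; limma, adjusted p = 0.466). The probe 1623 bp from the start read -0.90, -0.34, -0.30 and -0.12 in ERD, 0.32, 0.21 and -0.09 in BLD and -0.43, -1.09 and -0.81 in STD, with BLD minus STD at 0.92 ± 0.25 (SE; limma, adjusted p = 0.466). It was well above background on 1 of 3 STD arrays. The highest single value of the region, at probe 3, was well above background on 0 of 10 arrays. Without the 2 probes that failed on every array of a diet, BLD minus STD was 0.31 and ERD minus STD 0.22.

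Another pair of Rasgrf1 probes had low p in ERD against BLD, and both were partly dim. The probe 1991 bp from the start read -0.23, -0.18, 0.02 and -1.17 in ERD, against 0.44, 0.35 and 0.24 in BLD. Every ERD array lay below every BLD array, as at 5.62% of all probes (ERD minus BLD -0.73 ± 0.27 SE; limma, adjusted p = 0.381). That probe was well above background on 2 of 4 ERD arrays and 3 of 3 BLD arrays. The probe 731 bp from the start overlapped between both diets, at 0.78, 1.18, 0.15 and -0.05 in ERD and -0.67, 0.14 and -0.33 in BLD (ERD minus BLD 0.80 ± 0.31 SE; limma, adjusted p = 0.388), and it was well above background on 2 of 4 ERD arrays and 1 of 3 BLD arrays. Over the whole region ERD minus BLD was -0.12 with an interval of -0.37 to 0.13. The probe 1745 bp from the start was also among the 3 member probes with the lowest p in the trend, with a slope of 0.11 ± 0.04 (SE; limma, adjusted p = 0.206).

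Igf2r was covered by 8 probes at chr17:12961815-12962950, 26.4 kb from the Airn region. The ERD arrays stood at 0.02, 0.19, 0.01 and 0.11, the BLD arrays at -0.43, -0.09 and 0.18 and the STD arrays at 0.09, 0.15 and 0.40. ERD averaged 0.08 ± 0.09 (SD, n = 4), BLD -0.12 ± 0.31 (n = 3) and STD 0.21 ± 0.16 (n = 3), the highest of the diets here. The difference of BLD and STD was -0.33 ± 0.15 (SE; limma, adjusted p = 0.445). The estimate was -0.027 under normexp, -0.17 without BLD replicate 1 and -0.47 without BLD replicate 3. The BLD arrays lay far apart, and the pair on a shared slide, BLD replicate 3 and STD replicate 1, gave 0.09. Without the single probe that failed the background test on every STD array, BLD minus STD was -0.49 (limma, adjusted p = 0.473). The difference of ERD and STD was -0.13 ± 0.14 (SE; limma, adjusted p = 0.663). ERD minus BLD was 0.20 ± 0.14 (SE; limma, adjusted p = 0.646), with an interval of -0.10 to 0.50. It had the second lowest p of a member region in that comparison and ranged from 0.039 to 0.34 over the alternatives.

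At Igf2r a pair of neighbouring probes kept opposite signs on every array. The seventh probe, at chr17:12962714-12962758, was negative on every array, at -0.72, -0.49, -0.49 and -0.29 in ERD, -0.39, -1.03 and -0.48 in BLD and -0.18, -0.21 and -0.22 in STD. The eighth, at chr17:12962900-12962950, was positive on every array, at 0.52, 0.61, 0.36 and 0.40 in ERD, 0.68, 0.63 and 0.42 in BLD and 0.09, 0.64 and 1.34 in STD. Both were well above background on all arrays, and the part of probe and dye effects in this contrast was not tested. In the whole set of 83 probes, 6 were positive on every array and 1 was negative on every array, as were 7.33% and 10.4% of the 86593 probes with a value throughout. The third probe of Igf2r held the lowest value of BLD replicate 1 in the region, -2.59, beside -0.44 and -0.07 on the other BLD arrays.

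**Figure D3:**
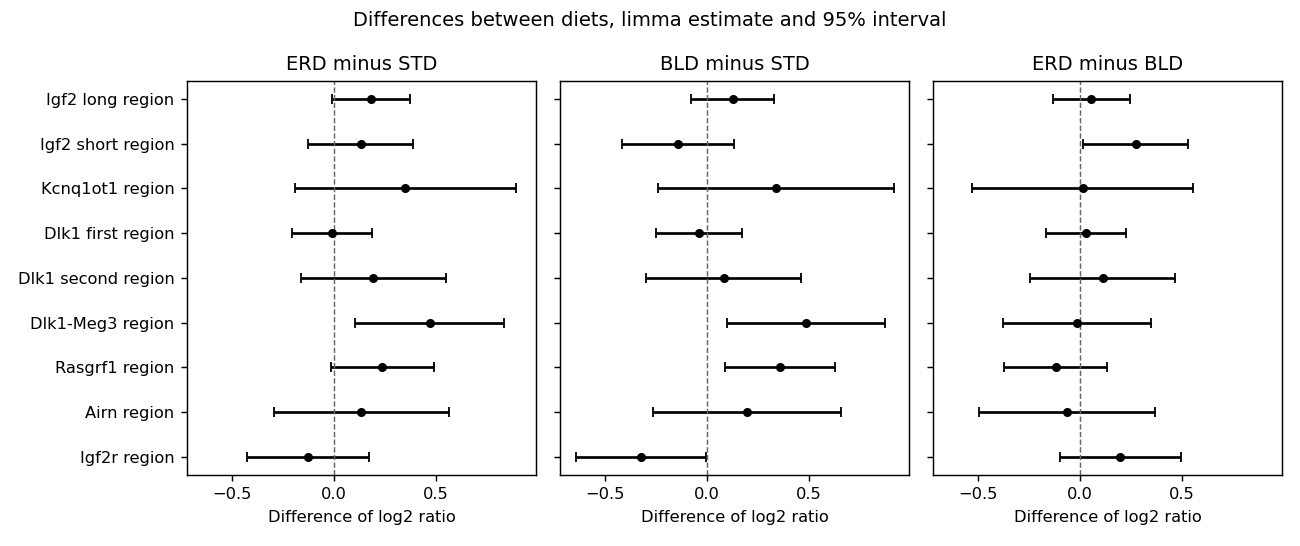
Differences of the mean log2 ratio between diets (horizontal axis) for the 9 regions, with limma's 95% intervals, for ERD minus STD, BLD minus STD and ERD minus BLD. No region passed the adjusted threshold. The Dlk1-Meg3 interval lies above 0 against STD in both diets and that of Rasgrf1 in BLD, all with a negative estimate under normexp. The Igf2r interval in BLD minus STD lies below 0 and that of the short Igf2 region in ERD minus BLD above it, with estimates of -0.027 and 0.012 under normexp.

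Counted over the set, no member region passed the adjusted threshold of 0.05 in limma in any of the 3 comparisons, as did 0% of all 13835 regions in each. At an unadjusted p under 0.05, ERD against STD gave 1 of 9 member regions, with 15.7% over all regions. BLD against STD gave 3 of 9, with 11.2% over all regions, and ERD against BLD gave 1 of 9, with 10.2%. The 3 were Rasgrf1 and Dlk1-Meg3, with positive differences, and Igf2r, with a negative one, beside 7.31% of all regions with a positive and 3.89% with a negative difference at that p. Without probes that failed the background test on every array of a diet, the unadjusted p (limma) was 0.286 at Dlk1-Meg3. It was 0.017 at Rasgrf1 and 0.0060 at Igf2r. With so few members a count of 1 or 3 adds little to these background shares. The ERD and STD arrays did not overlap in 2 of 9 member regions, with 16.2% over all regions, 7.24% with ERD above. The BLD and STD arrays did not overlap in 2 of 9, with 17.4%, 11.1% with BLD above, and the ERD and BLD arrays in 0 of 9, with 10.1%. In both comparisons with STD these were the long Igf2 region and Rasgrf1. The median difference over the 9 regions was 0.18 in ERD minus STD, beside 0.0033 over all regions, 0.13 in BLD minus STD, beside 0.03, and 0.03 in ERD minus BLD, beside -0.03. All 9 regions had a mean level above the array median, and the ratios spread more widely on ERD than on STD arrays. The part of this in the medians was not tested. Under normexp every named region difference from STD was negative. ERD and BLD were set against the same 3 STD arrays, so their differences from STD are not independent.

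Of the 83 member probes, 82 had a value on every array and were tested, and 0 passed the adjusted threshold in limma in any comparison, as did 0% of all 86593 probes. At an unadjusted p under 0.05, ERD against STD gave 8 of 82 member probes, all with a positive difference, with 15% over all probes, 6.47% positive and 8.56% negative. BLD against STD gave 15 of 82, of which 10 were positive and 5 negative, with 10.5% over all probes, 6.26% positive and 4.25% negative. The 3 member probes that were well above background on 0 of 10 arrays were all among these 10 positive probes. ERD against BLD gave 8 of 82, of which 5 were positive and 3 negative, with 11.7% over all probes, 5.45% positive and 6.23% negative. Under normexp the member counts at that p were 6 in ERD against STD, 3 in BLD against STD and 1 in ERD against BLD. ERD had the higher mean than STD at 56 of the 82 probes, where 53.1% of all probes did, and BLD at 47 of 82, where 52.3% did. The ERD and STD arrays did not overlap at 11 of 82 member probes, with 16.5% over all probes. For BLD and STD this was 18 of 82, with 16.6%, and for ERD and BLD 4 of 82, with 11.5%. Neighbouring probes share regions and arrays, so these counts are not of separate observations.

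For the trend, the log2 of the dietary n-3 to n-6 ratio entered the fit as a number, and slopes are per unit of it. The trend called 6 of 13835 regions, 0.0434%, and none of the 9 members. Dlk1-Meg3 had the lowest p of them, with a slope of 0.08 ± 0.03 (SE; limma, adjusted p = 0.283) and -0.04 under normexp. The long Igf2 region came next with 0.03 ± 0.02 (SE; limma, adjusted p = 0.353) and -0.01 under normexp. At an unadjusted p under 0.05 the trend gave 1 of 9 member regions, with 15% over all regions, and 8 of 82 member probes, with 14.6% over all probes.

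The diets differed in the spread of their arrays, so the regions were also ranked within each array. A uniform rescaling of an array leaves its ranks unchanged, but noise and dim spots can still move them, and their part was not tested. The Dlk1-Meg3 region stood at percentiles 99.6, 92.1, 85.8 and 94.7 on the ERD arrays, 95.6, 97.3 and 95.1 on the BLD arrays and 70.5, 92.4 and 77.4 on the STD arrays. The BLD arrays lay above all STD arrays on this scale, and 2 of the 4 ERD arrays did. These ranks include the fourth probe, which was well above background on 0 of 10 arrays. Without that probe the BLD values, 0.47, 0.43 and 0.36, overlapped those of STD, 0.18, 0.49 and 0.13, and ranks were not computed. Rasgrf1 stood at 76.8, 85.3, 68.6 and 67.2 in ERD, 85.2, 88.3 and 77.7 in BLD and 54.7, 59.0 and 27.4 in STD. The long Igf2 region stood at 76.2, 57.7, 78.0 and 59.8 in ERD, 53.5, 64.0 and 60.4 in BLD and 45.0, 39.6 and 35.5 in STD. At Igf2r STD had the highest mean rank. Its region stood at 57.7, 74.3, 60.4 and 72.2 in ERD, 12.5, 36.0 and 85.5 in BLD and 71.6, 80.6 and 98.9 in STD. Airn ranked above the 75th percentile on 9 of 10 arrays, at 80.9 to 95.4 on the STD arrays, and Kcnq1ot1 on 7 of 10. With all arrays scaled to 1 spread, ERD minus STD at Dlk1-Meg3 was 0.34 (limma, adjusted p = 0.307) and BLD minus STD at Rasgrf1 was 0.37 (limma, adjusted p = 0.255).

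**Figure D4:**
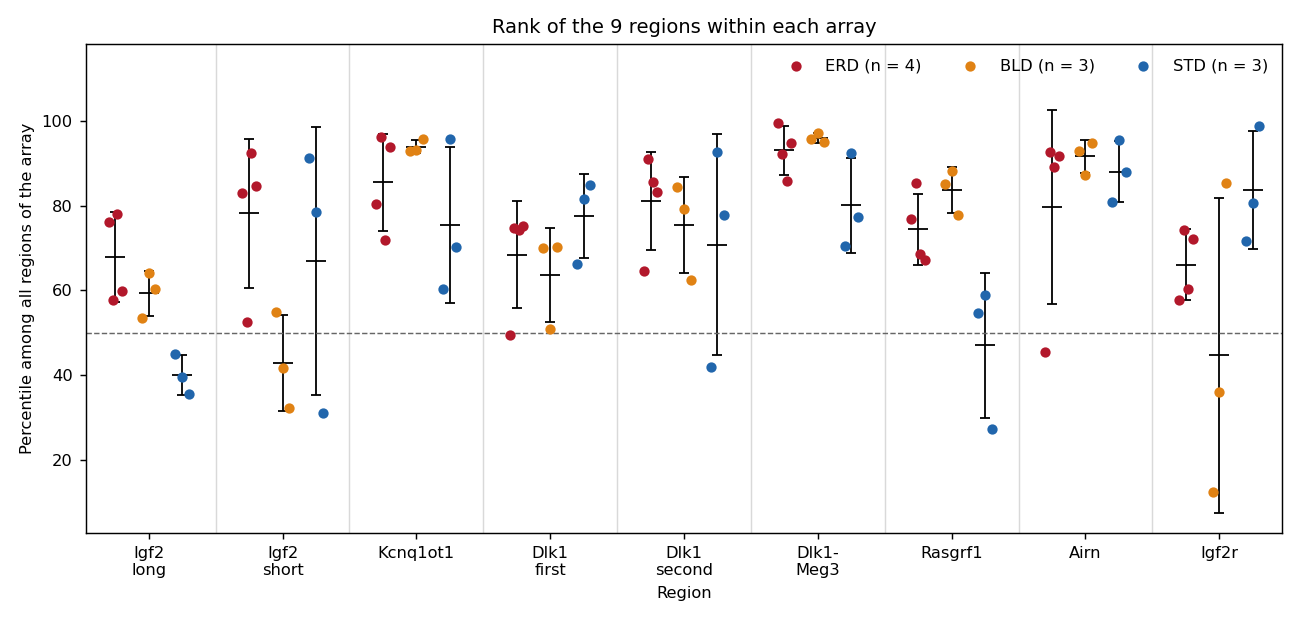
Percentile of the 9 regions among all 13835 regions of the same array (vertical axis, 0 to 100, dashed line at 50). Points are arrays, in the order ERD, BLD and STD within each region, and bars give the mean and SD of a diet, which can pass 100. The STD arrays lie at 35.5 to 45.0 for the long Igf2 region and at 27.4 to 59.0 for Rasgrf1.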

How the data were processed

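MeDIP-chip of left hemibrain was analysed from 10 arrays (ERD 4, BLD 3, STD 3). The processed intensity that the authors deposited for each channel came from Agilent Feature Extraction 10.7.3.1, with background subtracted and dyes scaled linearly, per the file headers. Version 9.0 of that tool is given in the submitters' processing notes. The authors also deposited a log10 ratio of Cy5 over Cy3, used here only as an alternative, and flags, which are codes and no measurements. Probe positions are on mm9, per the file headers. The log2 ratio was computed from the deposited intensities, outlier spots were dropped and the median non-control probe of an array was set to 0, without loess or quantile normalization. The number of arrays limits the precision.

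Region means were fitted with limma 3.58.1 in R 4.3.3 (lmFit, eBayes) over all 10 arrays, with Benjamini-Hochberg adjustment over all 13835 regions, or over 86593 probes, and a threshold of 0.05. The fit was tested on simulated data. Replicates are numbered in accession order, which pairs nothing. The members, lists and windows were chosen with earlier results of these data known. Regions named for differences are the highest in each window and those with the 2 lowest p per comparison, and probes those with the 3 lowest. The Igf2r difference of BLD and STD and the single probes described for position, sign or background were chosen after their values were seen. Alternatives were normexp (offset 50), loess, quantile normalization, scaling to 1 spread, the series value table, filters on dim or saturated spots, slide as a random block, a pair on 1 slide, array weights, the 2 diets alone, other region definitions and leaving out each array.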

Additional observations from a re-analysis of the deposited data

How the results depend on the processing

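No member region passed the adjusted threshold under the 24 alternative settings with a test for each comparison, or the 23 for the trend, with a lowest adjusted p of 0.132 among the 20 named differences. The count of member probes past it stayed at 0 except in ERD minus BLD, where leaving out arrays gave 0 to 1. Of 480 values of the named differences, 445 kept their direction and 35 did not. Normexp turned 15 of 20, and it moved some arrays close to 0, with BLD replicate 1 between -0.02 and 0.03 at every member region. In ERD minus STD it gave -0.062 at the long and -0.056 at the short Igf2 region, -0.0063 at Kcnq1ot1, -0.26 at Dlk1-Meg3, -0.053 at Rasgrf1 and -0.14 at Airn. In BLD minus STD it gave -0.12 at Kcnq1ot1, -0.33 at Dlk1-Meg3, -0.10 at Rasgrf1 and -0.23 at Airn. In ERD minus BLD it gave 0.075 at Dlk1-Meg3, 0.043 at Rasgrf1 and 0.092 at Airn, and in the trend -0.010 at the long Igf2 region and -0.043 at Dlk1-Meg3. The cause was not tested. Other turns in ERD minus BLD were 0.11 under loess, 0.0061 with the series value table and 0.16 with probes well above background in every diet at Dlk1-Meg3, a setting chosen after seeing the data, which also gave 0.043 at Airn. At Kcnq1ot1 they were -0.11 under quantile normalization, -0.071 with scaling to 1 spread and -0.12 with array weights, and at Rasgrf1 0.00065 with gaps of at most 250 bp. With probes well above background on every array, which left too few probes at the second Dlk1 and the Dlk1-Meg3 region, BLD minus STD was -0.21 at Airn and ERD minus BLD 0.056 at Rasgrf1 and 0.23 at Airn. The pair on 1 slide gave BLD minus STD of 0.090 at Igf2r. Leaving out single arrays gave ERD minus STD of -0.046 to 0.30 at Airn, and ERD minus BLD of -0.25 to 0.17 at Kcnq1ot1, -0.17 to 0.12 at Dlk1-Meg3 and -0.24 to 0.10 at Airn. The mean level was above the array median in 9 of 9 regions, in 7 of 9 under normexp and in 6 of 7 with probes well above background on every array. No paired analysis was possible because the labels give no replicate numbers, and slides entered as a random block. Signal over background limits the 11 of 83 member probes that were not well above it on any array of some diet, 10 of them in STD.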
